A study of Capra hircus with 6 samples.

Results

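Genes of glutamate and GABA signalling and of the synapse were examined for differing chromatin accessibility in dairy goat mammary epithelial cells. The list names 40 genes, of which 38 matched a protein-coding gene of the RefSeq table for the goat assembly ARS1.2, while CNTN5 and CSMD3 did not. Every listed region whose centre lay inside one of these genes, or within 50000 bp of an end of it, was taken. That gave 144 of the 30714 regions in the authors' deposited table, and none of the 144 belonged to more than 1 member. The genes share a function in neurons and are not expected to be expressed by mammary epithelium, and the rule that assigns regions to them uses positions only.

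ATAC-seq, in which a transposase tags DNA not covered by nucleosomes, was made from mammary epithelial cells (Capra hircus, mammary gland) of the dry period, when no milk is made, and of the lactation period. Each period had 3 libraries, and the labels give neither breed, age nor number of goats. Nothing says whether they stem from different animals, so the authors' p-values may measure technical spread. For each region, listed where p was under 0.001, the deposited table gives 1 ratio between the groups (the fold change, below also fold), 1 p-value and 1 false discovery rate (FDR) for the whole comparison. It holds no value per library, and read depth is unknown. Regions carry names in 2 series, here set 1 (22884 regions) and set 2 (7830 regions), and fold changes exceed 1 in both. Each set was therefore read as the regions more accessible in one of the periods. Which period belongs to which set is not stated, so directions are given by set only. A region is called below when the authors' FDR was under 0.05. Because the table lists differing regions only, a gene without one may be open, or closed, in either period alike, and the labelled cell type could not be checked against the level of its markers. More cells of a type and more open chromatin per cell cannot be told apart in such bulk libraries.

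Glutamate is the main excitatory transmitter of the brain and GABA the main inhibitory one. Each acts on receptor channels (the AMPA, NMDA and kainate receptors for glutamate, the GABA-A receptor for GABA) and on slower receptors coupled to G proteins (the metabotropic glutamate receptors and the GABA-B receptor). Transmitter leaves the presynaptic terminal by fusion of vesicles, and adhesion proteins such as neurexins and neuroligins join the terminal to the postsynaptic scaffold that holds the receptors. Many genes of this kind are very long and lie far from other genes, while others are short and lie among housekeeping genes.

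The 144 regions fell into 98 of set 1 and 46 of set 2, so that set 1 made up 68.1% (60.1% to 75.1% as a 95% Wilson interval, for counting error only) beside 74.5% of all listed regions. At an FDR under 0.05, 38 of the 144 were called (26.4%, 19.9% to 34.1%), against a background of 27.8% of all listed regions, so the share called was near the background. Of the 38, 35 were in set 1 and 3 in set 2. Within set 1, 35.7% of the member regions were called, with a background of 34.2%, and within set 2 6.52%, with a background of 9.23%. The p limit behind the call differed between the sets, since the largest p of a called region per the authors' deposited table was 6.21e-05 in set 1 and 5.63e-06 in set 2.

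Of the 38 members, 23 had a listed region and 15 had none. Regions were called at 14 members (36.8%), whereas 51.4% of all 19063 protein-coding genes on the numbered chromosomes had a called region in the same window. All regions were in set 1 at 11 members, all were in set 2 at 6, and 6 members had both. The members with the most listed regions were NRXN2 with 18, DLG4 with 16, GRIN1 with 15, DLG2 with 12 and GRIN2D with 10. Of these only DLG2 had set 2 regions.

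**Figure D1:**
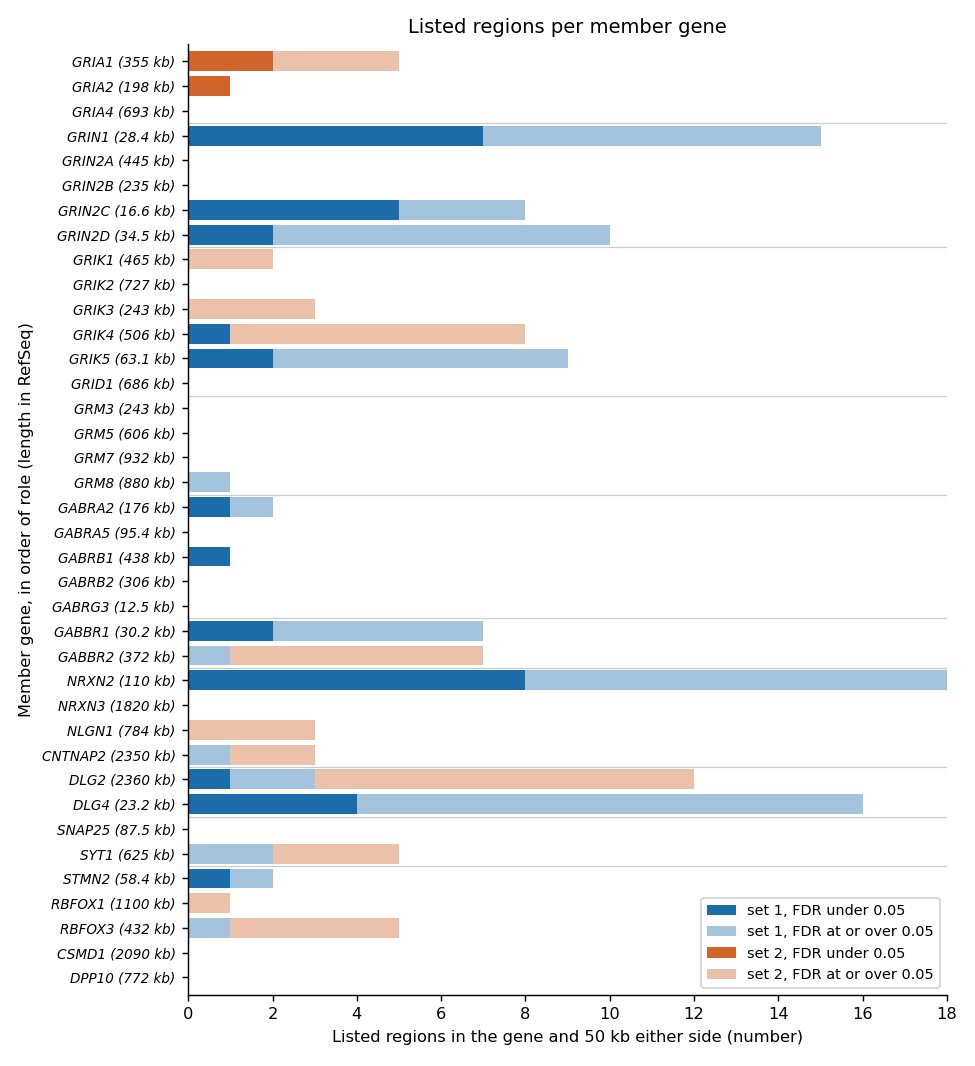
Number of listed regions (x axis) in each of the 38 matched member genes with 50 kb either side (y axis, grouped by role with the gene length), coloured by set, with dark bars for an FDR under 0.05. NRXN2, DLG4 and GRIN1 carry 18, 16 and 15 regions, all of set 1, while 15 members carry none.

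Members whose surroundings are crowded with genes differed in set from members with fewer neighbours. The window of 7 members (DLG4, GABBR1, GRIK5, GRIN1, GRIN2C, GRIN2D and NRXN2) held 4 or more other protein-coding genes, and all 83 regions there were in set 1, of which 30 (36.1%) were called. The remaining 31 members, with 3 or fewer such genes, had 61 regions, of which 15 were in set 1 (24.6%). Of the 61, 8 (13.1%) were called. Among these members, the 24 with no other gene in the window had 27 regions, 29.6% in set 1 and 14.8% called. The division at 4 genes was chosen after the values were seen and is given without a test. Other protein-coding genes with crowded windows had 88.5% of 9046 regions in set 1 (31.3% called). Those with 3 or fewer neighbours had 73.8% of 21937 (27.2% called). The 31 members had a median length of 465 kb, against 27.9 kb for other genes with 3 or fewer neighbours. Over 500 kb, other genes had 53.9% of 931 regions in set 1 and members 24.2% of 33.

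In each of the 7 crowded windows most regions had a neighbour as nearest gene. The member was the nearest for 1 of 16 regions at DLG4, 2 of 7 at GABBR1, 2 of 9 at GRIK5 and 6 of 15 at GRIN1. It was so for 3 of 8 at GRIN2C, 1 of 10 at GRIN2D and 5 of 18 at NRXN2. Over all member windows, crowded or not, the member was the nearest protein-coding gene for 75 of the 144 regions (52.1%). These were 33 of the 98 in set 1 and 42 of the 46 in set 2. Among the 38 called regions it was the nearest for 14. Of the 144 regions, 72 (50.0%) lay outside the member and more than 3000 bp from both of its ends, 56 lay inside it at that distance, and 16 lay within 3000 bp of an end. Set 2 regions were inside the member in 38 of 46 cases, and set 1 regions in 23 of 98. In the windows of all protein-coding genes, 4113 of 6182 set 2 and 11860 of 20231 set 1 regions lay inside any such gene. These made up 60.5% of the regions there, and 34.0% were at most 3000 bp from where any such gene ends. The matching member shares, 42.4% and 11.1%, were counted against the member alone. Member regions in or close to a neighbouring gene, such as POU2F2 or PYGM, are left out of them. The member and all-gene values, also by set, therefore differ in measure and cannot be compared. Each of the 38 set 2 regions inside a member lay at least 13364 bp from its nearest end (median 104827 bp), whereas the 23 set 1 regions inside a member had a median distance of 9962 bp. Of the regions inside a member, 24 of set 2 and 5 of set 1 lay in genes over 500 kb. Distances were not compared at equal gene length. The gene table gives no strand, so starts and ends could not be told apart.

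**Figure D2:**
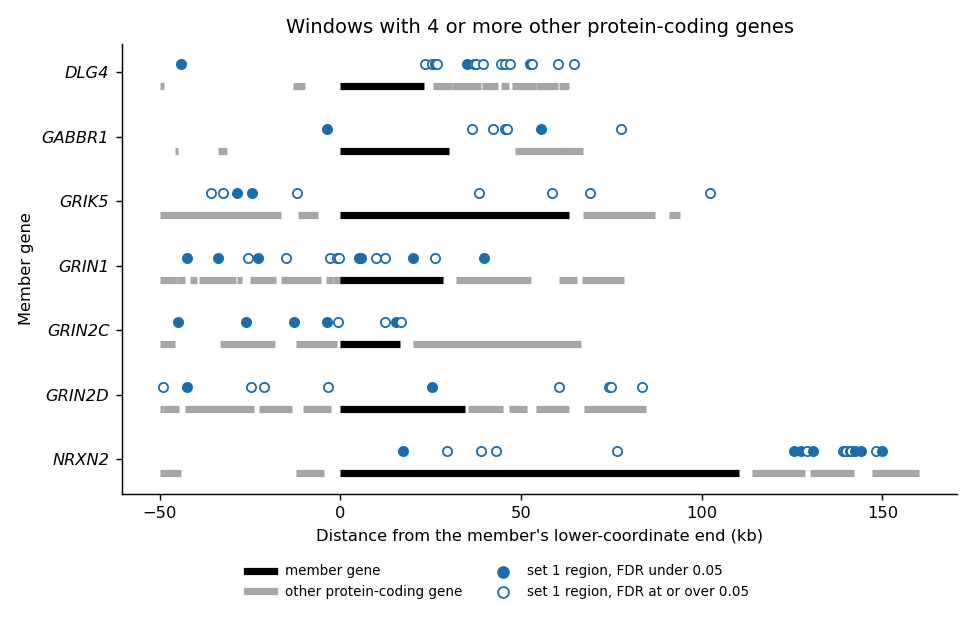
Regions (circles) of the 7 members whose window held 4 or more other protein-coding genes, drawn by distance in kb from the member's lower-coordinate end (x axis), with the member as a black bar and its neighbours as grey bars. All 83 regions are of set 1, and filled circles mark the 30 with an FDR under 0.05.

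AMPA receptor subunits, which carry fast excitatory currents, held all 3 set 2 regions that were called. GRIA1 had 5 listed regions, all in set 2. The region inside GRIA1 on chromosome 7 at 45547701 to 45548300 showed a fold of 2.47 per the authors' deposited table (p = 1.19e-09, FDR = 0.000113), the lowest FDR of any set 2 region among the members. Another GRIA1 region, at 45615701 to 45616100 and 745 bp beyond an end of the gene, had a fold of 2.50 (FDR = 0.00373) per the authors' deposited table. These calls thus lay at one end of the gene and 67154 bp inward from it. The other 3 GRIA1 regions had folds of 5.04, 4.01 and 3.53 per the authors' deposited table, with an FDR of 0.221 or more. GRIA2, the subunit that sets calcium permeability, had a single region. It lay inside the gene on chromosome 17 at 29164501 to 29165000, 38689 bp from an end, with a fold of 7.48 (p = 1.02e-06, FDR = 0.0156) per the authors' deposited table. No region was listed at GRIA4. No other protein-coding gene lies in the GRIA1 window and 1 lies in that of GRIA2, and every region at both had the member as its nearest gene.

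NMDA receptor subunits, which form calcium-permeable receptors that need glutamate and a co-agonist, had 33 regions, all in set 1, of which 14 were called. All 33 were at 3 short genes, GRIN1 (28.4 kb), GRIN2C (16.6 kb) and GRIN2D (34.5 kb), and the longer GRIN2A (445 kb) and GRIN2B (235 kb) had none. The longer pair had no other protein-coding gene in the window, against 13, 4 and 9 for the short ones.

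GRIN1, the subunit present in every NMDA receptor, had 15 regions on chromosome 11, of which 6 were inside the gene and 7 were called. Inside GRIN1 the called regions at 106082701 to 106083300, 106083401 to 106083600 and 106097901 to 106098300 had folds of 1.51, 1.67 and 1.60 per the authors' deposited table, with FDR values of 0.0151, 0.0164 and 0.0242. They were thus small differences within the gene body. The lowest FDR of the window, 0.00689 at a fold of 2.75 per the authors' deposited table, belonged to a region at 106035301 to 106035800, which is 42387 bp from GRIN1 and 643 bp from CYSRT1. The 4 regions within 3000 bp of an end of GRIN1 had folds of 1.72, 1.79, 1.59 and 3.01 per the authors' deposited table and an FDR from 0.0703 to 0.227. None of these 4 was called, and 2 of them lie inside the neighbour LRRC26.

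GRIN2C had 8 regions on chromosome 19, of which 5 were called. The called region closest to it, inside the gene at 55781301 to 55781500 and 1085 bp from an end, had a fold of 1.91 (FDR = 0.029) per the authors' deposited table. The lowest FDR of the GRIN2C window was 0.00648, at a fold of 2.48 per the authors' deposited table, for the region at 55752801 to 55753100. That region lies 586 bp from an end of FDXR, the reductase that supplies electrons to mitochondrial cytochrome P450 enzymes. A region 214 bp beyond an end of GRIN2C had a fold of 3.03 (FDR = 0.167), and one 809 bp from the opposite end, between GRIN2C and FDXR, had 2.60 (FDR = 0.113) per the authors' deposited table. Those nearest to the ends of GRIN2C were therefore not called.

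GRIN2D had 10 regions on chromosome 18, of which 2 were called and 1 was inside the gene. The inside region, at 56142101 to 56142600 and 9217 bp from an end, had a fold of 2.88 (p = 5.43e-06, FDR = 0.00972) per the authors' deposited table. At 56074301 to 56074900, inside the neighbour TMEM143 and 42446 bp from GRIN2D, the authors' deposited table gave a fold of 2.82 (FDR = 4.96e-06), the lowest FDR of all 144 regions. The largest fold change at an NMDA subunit was also in this window, 4.55 with an FDR of 0.259 per the authors' deposited table, for a region inside LMTK3.

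Kainate and delta receptor subunits had 22 regions, 10 of set 1 and 12 of set 2, and 3 were called, all in set 1. GRIK5, an auxiliary kainate subunit of 63.1 kb with 4 neighbours, had 9 regions, all in set 1. Its 2 called regions lay inside POU2F2, a transcription factor of B cells, with folds of 1.93 (chromosome 18, 52051801 to 52052400, FDR = 1.33e-05) and 3.38 (52047701 to 52048100, FDR = 0.0437) per the authors' deposited table. Inside GRIK5 itself were 2 regions, neither called, with folds of 2.10 and 3.05 per the authors' deposited table (FDR = 0.266 and 0.113). GRIK5 is thus a member whose calls all lie at another gene.

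GRIK4, the other auxiliary kainate subunit, is 506 kb long and had 8 regions on chromosome 15, 7 of set 2 and 1 of set 1. The only call was the set 1 region inside the gene at 50904901 to 50905300, with a fold of 2.17 (p = 6.01e-05, FDR = 0.049) per the authors' deposited table, close to the limit. It lay between set 2 regions 3400 bp to one side and 4200 bp to the other, which had folds of 4.21 and 4.02 (FDR = 0.334 and 0.595) per the authors' deposited table. Regions of both sets thus stood within a few kb of each other inside one gene. The largest fold change among kainate subunits per the authors' deposited table, 7.08 for a set 2 region inside GRIK4, had the highest FDR of the gene, 0.856. GRIK1 (2 regions) and GRIK3 (3 regions) had set 2 regions only, none called, at fold changes between 2.40 and 5.01 per the authors' deposited table. GRIK2 and the delta receptor gene GRID1 had none.

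Metabotropic glutamate receptors had 1 listed region in 4 genes. It lay 1252 bp from an end of GRM8, a presynaptic receptor, in set 1, with a fold of 2.16 and an FDR of 0.12 per the authors' deposited table, and was not called. GRM3, GRM5 and GRM7 had none, although the 4 windows range from 0.343 to 1.03 Mb.

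GABA-A receptor subunits, which form a chloride channel, had 3 regions in 5 genes, all in set 1, of which 2 were called. Both calls lay at a gene end. In GABRA2 the region on chromosome 6 at 65517801 to 65518200, 410 bp from an end, had a fold of 3.42 (p = 5.77e-05, FDR = 0.0477) per the authors' deposited table. At GABRB1 the region at 66193001 to 66193300 on the same chromosome, with its centre 15 bp from an end, had a fold of 2.37 (p = 4.3e-05, FDR = 0.0392) per the authors' deposited table. Both were near the FDR limit. The GABRB1 region also lies 41869 bp from GABRA4, a neighbouring subunit gene that is not a member, so it counts for that gene too. A second GABRA2 region, 39039 bp outside the gene, had the largest fold change of the group, 3.71 (FDR = 0.0747) per the authors' deposited table. GABRA5, GABRB2 and GABRG3 had no region. In the table used here GABRG3 spans only 12.5 kb.

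The GABA-B receptor is a pair of GABBR1 and GABBR2, and regions in the 2 windows were mostly of opposite sets. The member was the nearest gene for 2 of the 7 GABBR1 regions and 5 of the 7 GABBR2 regions. Their windows held 4 and 2 other protein-coding genes. Over all protein-coding genes the set 1 share was 83.2% under 50 kb and 73.0% from 50 to 500 kb. GABBR1 (30.2 kb) had 7 regions, all in set 1 and all outside the gene, and GABBR2 (372 kb) had 7, of which 6 were in set 2. For GABBR1 a region on chromosome 23 at 21060201 to 21060500, 3758 bp from an end and nearest to this gene, had a fold of 2.14 (p = 9.28e-06, FDR = 0.0141) per the authors' deposited table. The other GABBR1 call, 1.65 with an FDR of 0.022 per the authors' deposited table, lay inside MOG, a gene of myelin. At GABBR2 nothing was called. Its 4 regions inside the gene were all in set 2, with fold changes from 1.71 to 7.38 and an FDR from 0.149 to 0.61 per the authors' deposited table. The 7.38 was the largest of the group.

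**Figure D3:**
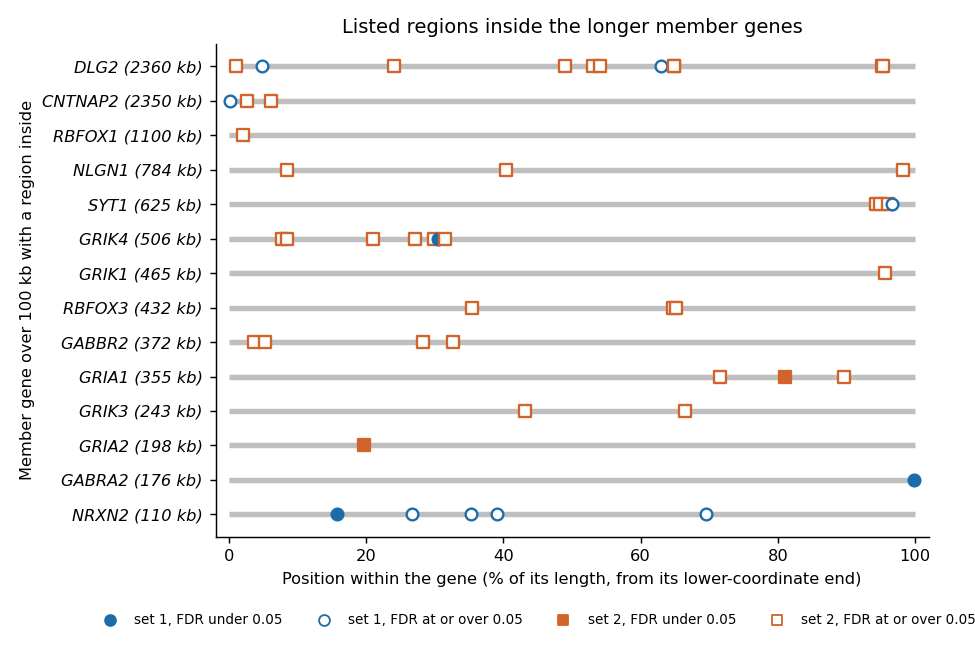
Position of each region inside the member genes over 100 kb (x axis, percent of the gene's length from its lower-coordinate end; y axis, gene), with circles for set 1, squares for set 2 and filled symbols for an FDR under 0.05. Squares run along most of DLG2 but lie in one part of GRIK4, GABBR2 and GRIA1, and only those of GRIA1 and GRIA2 include filled ones.

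Among the synaptic adhesion genes, NRXN2 carried all 8 calls. NRXN2, a neurexin of the presynaptic membrane, spans 110 kb and had 18 regions on chromosome 29, all in set 1. The call inside the gene, at 43296401 to 43297000 and 17278 bp from an end, had a fold of 2.65 (p = 4.76e-07, FDR = 0.00176) per the authors' deposited table. The other 4 regions inside NRXN2 had fold changes from 1.91 to 4.65 per the authors' deposited table and were not called. Outside it lay 13 regions, all on one side, of which 8 were nearest to PYGM, the muscle glycogen phosphorylase, 3 to RASGRP2 and 2 to the splicing factor SF1. The lowest FDR of the window, 0.000274 at a fold of 2.36 per the authors' deposited table, belonged to the region inside RASGRP2 at 43406501 to 43407100. The widest region of the NRXN2 window, 900 bp at 43421401 to 43422300 and 270 bp from an end of PYGM, had a fold of 2.52 (FDR = 0.000455) per the authors' deposited table. Most of the calls counted for NRXN2 are thus at its neighbours.

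The longer adhesion genes had few regions and no call. NLGN1, a postsynaptic partner of neurexins, had 3 set 2 regions spread along its 784 kb, with folds of 4.07, 5.40 and 1.59 per the authors' deposited table and an FDR from 0.555 to 0.849. The 5.40 was the largest fold change of the adhesion group. CNTNAP2, of the neurexin superfamily and 2350 kb long, had a set 1 region 2536 bp inside an end (fold change of 2.05, FDR = 0.0796) and 2 set 2 regions (1.77 and 2.36) per the authors' deposited table. NRXN3, at 1820 kb, had none.

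The scaffold genes DLG2 and DLG4 encode related proteins of the postsynaptic density. Regions in their windows also differed in set, and here too the shorter gene had the more crowded window. DLG4, which encodes PSD-95 and spans 23.2 kb with 9 neighbours, had 16 regions on chromosome 19, all in set 1 and none inside the gene. DLG2, at 2360 kb, had 11 regions inside it, 9 in set 2 and 2 in set 1, none of them called. One region had DLG4 as its nearest gene. It lay 328 bp beyond an end, at 26744101 to 26744300, with a fold of 5.39 (FDR = 0.105) per the authors' deposited table. A second within 3000 bp of DLG4 was 171 bp from an end of ACADVL, an enzyme of fatty acid oxidation, with a fold of 1.60 (FDR = 0.205) per the authors' deposited table. The 4 calls in the DLG4 window were inside ACADVL (1.88, FDR = 0.00624), DVL2 (3.20, FDR = 0.0224) and CTDNEP1 (3.84, FDR = 0.0179) and near ASGR2 (2.59, FDR = 0.0211) per the authors' deposited table. Also in this window, 3 regions were nearest to GABARAP, an autophagy protein first named for its binding to the GABA-A receptor, with fold changes from 1.84 to 4.25 per the authors' deposited table. None of the 3 was called.

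At DLG2 the 9 set 2 regions inside the gene had fold changes from 1.67 to 8.80 per the authors' deposited table, and their FDR ranged from 0.306 to 0.848. The largest, at 9925001 to 9925200 on chromosome 29 and 570018 bp from an end, was also the largest fold change among all 144 regions. It was only 200 bp wide and had an FDR of 0.436 per the authors' deposited table. The single call counted for DLG2 lay at the edge of its window, 49631 bp outside the gene and 5608 bp from an end of CREBZF. It was a set 1 region of 1100 bp with a fold of 2.31 (p = 1.5e-07, FDR = 0.000757) per the authors' deposited table. The closest region beyond the 50000 bp limit of any member was 50737 bp from GRIN1, in set 1, with a fold of 3.60 (FDR = 0.162) per the authors' deposited table.

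Genes of vesicle release had no call. SNAP25, a SNARE protein of the presynaptic membrane, had no listed region. SYT1, the calcium sensor of fast release, had 5 regions on chromosome 5, all near one end of its 625 kb. The 3 set 2 regions had folds of 2.40, 3.13 and 4.52 per the authors' deposited table and an FDR of 0.0949, 0.0784 and 0.408. The set 1 region beside them, at 8840701 to 8841200, had a fold of 5.71 (FDR = 0.139), the largest set 1 fold change among the members, and a second, 2767 bp beyond the end, had 2.99 (FDR = 0.252) per the authors' deposited table. As in GRIK4, both sets were found side by side, here 3200 bp apart.

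Of the other neuronal genes, STMN2, a microtubule regulator of growing axons, had the only call. The called set 1 region lay 44561 bp from the gene on chromosome 14 at 39150101 to 39150600, with a fold of 4.01 (p = 4.51e-05, FDR = 0.0405) per the authors' deposited table, and no other protein-coding gene lies in the window. A second STMN2 region, inside the gene and 2420 bp from an end, had 3.89 (FDR = 0.132) per the authors' deposited table. RBFOX1, a neuronal splicing factor, had 1 set 2 region of 700 bp inside its 1100 kb, with a fold of 4.17 (FDR = 0.0784) per the authors' deposited table. RBFOX3, the neuronal nuclear antigen NeuN, had 4 set 2 regions and 1 of set 1. The 3 inside the gene were of set 2, with folds of 3.75, 3.03 and 5.75 per the authors' deposited table and an FDR of 0.303 or more, and the 5.75 was the largest of this group. CSMD1, at 2090 kb, and DPP10, at 772 kb, had none.

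Fold changes and widths of the member regions lay close to those of all listed regions. Per the authors' deposited table the median fold was 2.50 for the 98 set 1 regions (interquartile range 1.89 to 3.33). It was 2.39 (1.87 to 3.23) for all of set 1. For the 46 set 2 regions it was 3.92 (3.00 to 4.93), and 3.59 (2.67 to 4.98) for all of set 2. A fold change above 4 was found at 23 of 46 set 2 and 11 of 98 set 1 regions, of which 1 and 2 were called. Most large folds among the members were thus not called. Calls were also few over all of set 2 (9.23%), and folds above 4 were not counted over all listed regions. The median width was 300 bp in both sets of member regions, beside 300 bp in all of set 1 and 200 bp in all of set 2.

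**Figure D4:**
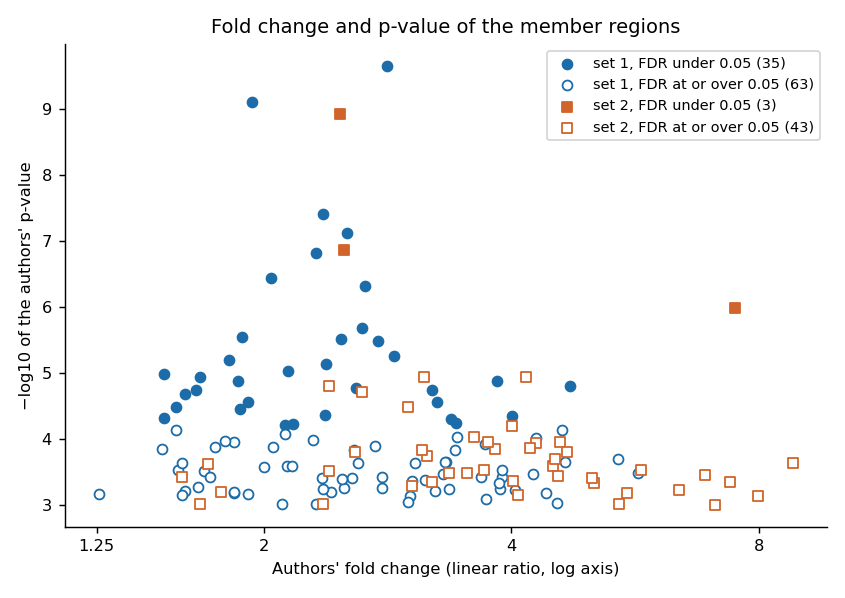
Fold change (x axis, linear ratio on a log axis) against −log10 of the p-value (y axis) of the 144 member regions per the authors' deposited table, with circles for set 1, squares for set 2 and filled symbols for an FDR under 0.05. The set 2 regions with the largest folds, up to 8.80, lie at high p-values, apart from GRIA2 at 7.48.

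Listed regions were sparse along the long members, more so than along other long genes. The 15 members over 500 kb had 33 regions in 18.43 Mb of window, 1.79 per Mb, and 8 of the 15 (53.3%) had none. The 210 other protein-coding genes over 500 kb had 4.96 per Mb, and 21.0% had none. Calls were found at 2 of these 15 members, GRIK4 and DLG2, whereas 43.6% of all genes over 500 kb had one. The set 1 density was 0.434 per Mb in the long members and 2.67 in the other long genes, and the set 2 density was 1.36 and 2.28. The 6 members under 50 kb had 75.1 set 1 regions per Mb against 20.3 for all protein-coding genes of that length, and 0 set 2 regions. All but GABRG3 of these 6 have crowded windows, and other genes with crowded windows had 32.7 set 1 regions per Mb. With 6 and 15 genes these densities are descriptions of these loci and were not tested.

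**Figure D5:**
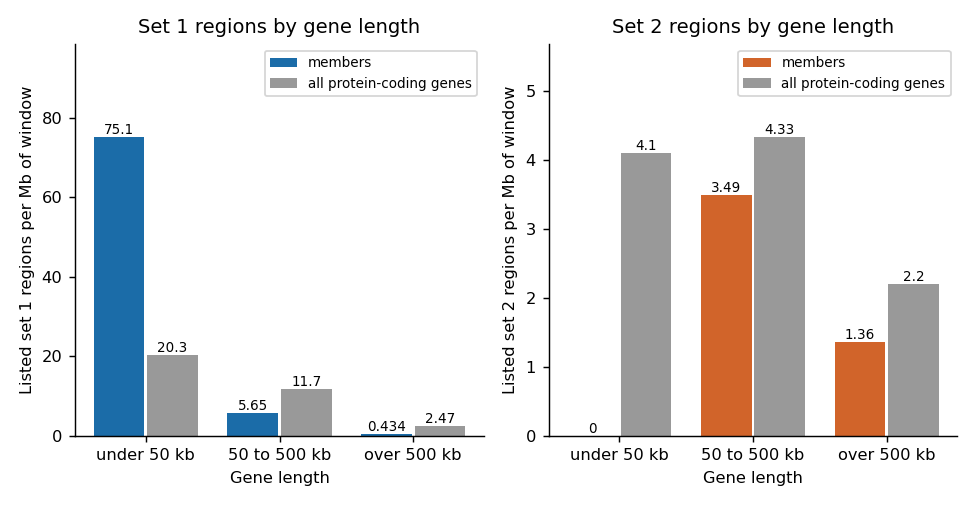
Listed regions per Mb of window (y axes, from 0) for set 1 (left) and set 2 (right) by gene length (x axis), with coloured bars for the members (6, 17 and 15 genes) and grey bars for all protein-coding genes. Set 1 bars of the members fall from 75.1 to 0.434 per Mb with length, and the set 2 bar of the members is 0 under 50 kb.

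Other genes of the same pathways were read in the same windows from lists of 95 further genes, of which 86 matched. They had 245 regions, 207 in set 1 (84.5%) and 38 in set 2, and 87 (35.5%) were called, 85 of them in set 1, beside the background of 27.8% of all listed regions. A listed region was found at 56 of the 86 genes and a call at 38 (44.2%), beside 51.4% of all protein-coding genes. By length the set 1 share was 93.9% in the genes under 50 kb, 80.3% from 50 to 500 kb and 42.9% of 14 regions over 500 kb, and over all protein-coding genes it fell with length too, from 83.2% to 73.0% and 52.9%.

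Further glutamate receptors had 8 calls in 19 regions. The NMDA subunit GRIN3A had a set 1 region inside the gene with a fold of 2.31 (FDR = 0.00229) per the authors' deposited table. Further GABA receptor subunits had 12 regions, 10 of set 1 and 2 of set 2, and 4 calls, all 4 in set 1. Among the calls was GABRR2 at a fold of 2.82 (FDR = 0.000513) per the authors' deposited table, for a region 40139 bp outside the gene. Synthesis, uptake and loading of transmitter had 47 regions, 39 of set 1 and 8 of set 2, and 20 calls, all 20 in set 1. The vesicular glutamate transporter SLC17A7 had 11 set 1 regions, the lowest FDR being 9.64e-09 at a fold of 1.76 per the authors' deposited table, 2436 bp from an end. The glutamate transporter SLC1A1, which also acts outside the nervous system, had a region inside the gene with 3.29 (FDR = 3.82e-08), and glutamine synthetase GLUL one 1748 bp from an end with 1.78 (FDR = 0.000388) per the authors' deposited table. This group thus holds calls inside or at the ends of its own genes.

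Scaffold and adhesion genes outside the list had 49 regions, 35 of set 1 and 14 of set 2, and 16 calls, all 16 in set 1. The window of NLGN2, a neuroligin of inhibitory synapses, held 13 set 1 regions. The region with the lowest FDR among them lay 29350 bp outside the gene, which spans 10.1 kb. DPP6, a paralogue of DPP10, had a call inside the gene with a fold of 2.45 (FDR = 0.000214) per the authors' deposited table. Vesicle release genes had 111 regions, 99 of set 1 and 12 of set 2, and 37 calls, of which 36 were in set 1. VAMP2 had 21 of the regions. The region with the lowest FDR there lay 41836 bp outside the gene. Receptor partner genes had 2 calls in 7 regions, at KCTD8 and NETO2, both within 3000 bp of an end.

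Marker genes of the cell types that the gland could hold were counted in the same way, to be read beside the 51.4% of all protein-coding genes with a call and the 27.8% of all listed regions called. Neuron markers, some of which are members, had 39 regions at 9 of 12 genes, 28 of them in set 1, and 9 calls (23.1%), all in set 1. SNAP25, ELAVL4 and NEFM had none, and of the calls only that of NEFH lay within 3000 bp of the marker among the regions with the lowest FDR per gene. Schwann cell and glia markers had 21 regions, 15 of them in set 1, and 9 calls (42.9%), all in set 1, led by MBP at a fold of 1.80 (FDR = 0.000136) per the authors' deposited table. Luminal markers had calls at 10 of 10 genes (20 in set 1 and 1 in set 2), basal and myoepithelial markers at 3 of 7, fibroblast markers at 2 of 8, endothelial markers at 4 of 5, immune markers at 7 of 9 and adipocyte markers at 3 of 4. Set 2 calls numbered 4 in the endothelial, 3 in the immune and 1 in the adipocyte list. The part of these cell types in the member results was not tested.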

How the data were processed

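The data are 1 table of regions from the comparison of 3 dry period and 3 lactation ATAC-seq libraries (50000 cells each, BGISEQ-500 sequencing, per the labels' protocols). Bowtie2 2.2.5 and MACS2 stand in the submitters' processing notes without a stated role. Not given in the sources used here are the build, the caller of the differing regions with its windows, and any Tn5 shift or duplicate removal. Fold changes are linear ratios as the authors deposited them, one per region. The deposited p-value (all under 0.001) and FDR (a q-value) are the authors'. The deposited signal value is a score whose median ratio to the fold change was 32.0 in set 1 and 20.4 in set 2, and was not used. The deposited length is another unit, bp, and equals end minus start in all 30714 rows.

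Positions are the authors', counted from 1. They were joined to 19063 protein-coding genes of RefSeq ARS1.2 by the region's centre. As a check of the build, the share of regions at most 1000 bp from a gene end was higher with the genes of the same chromosome than with those of any other on 29 of 29 chromosomes. The window count was tested on simulated data (Python 3.11.15, pandas 2.3.3, scipy 1.17.1). No test was run here: calls are the authors' FDR under 0.05, and shares carry 95% Wilson intervals. Members and lists were chosen with earlier results of these data known. Named were every member, its called region of lowest FDR, all set 2 calls, all regions within 3000 bp of an end, the largest fold per role, and up to 4 genes per other list. No sequences were printed, since no genome was used here. Most genes of the other lists are counted only.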

Additional observations from a re-analysis of the deposited data

How the results depend on the processing

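No paired analysis was possible because the table holds 1 value per region and none per library, so neither a block on the replicate numbers nor leaving out a library was run. The main values were 144 regions, a set 1 share of 68.1%, 38 called regions at 14 genes, 26.4% called, 42.4% inside the member and 5.71 regions per Mb. With regions inside the gene only they were 61, 37.7%, 10 at 8 genes, 16.4% called and 2.85 per Mb. With a window of 10000 bp they were 81 regions, 49.4% in set 1, 15 called, 18.5% called, 75.3% inside and 3.66 per Mb, and with 100000 bp there were 217 regions and 28.1% inside. With only the regions nearest to the member they were 75, 44.0%, 14 called, 18.7%, 81.3% inside, 2.98 per Mb and a set 1 median fold of 2.78. At p under 1e-05 in both sets 18 regions remained, all 18 called (100%), with 83.3% in set 1 beside 82.8% of all such regions, 22.2% inside, 0.714 per Mb, a set 2 median fold of 2.50 and median widths of 500 bp in set 1 and 500 bp in set 2. An FDR under 0.01 called 14 regions at 8 genes (9.72%), and under 0.10 38.9%. Among called regions alone 92.1% were in set 1 and 26.3% inside, with median widths of 400 bp (set 1) and 500 bp (set 2) and a set 2 median fold of 2.50. Without the 7 members in crowded windows, an alternative chosen after seeing the data, there were 61 regions, 24.6% in set 1, 8 called at 7 genes, 13.1% called, 73.8% inside, 2.52 per Mb and a set 1 median fold of 3.23. Placing regions by any overlap changed none of these values, and without NRXN2, the member with the most regions, the set 1 share was 63.5%. In all, 52 of 99 alternative values stayed within the limits set for a change. Fewer regions or genes enter most of these alternatives by construction, and read depth is unknown.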
